A study of Homo sapiens with 12 samples.

Results

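The 10 S100 genes described here (S100A2, S100A4, S100A6, S100A7, S100A8, S100A9, S100A10, S100A11, S100A14 and S100P) were taken from a table of 17013 genes by matching their symbols to Ensembl gene identifiers, and each of the 10 had a row. The table holds sequencing of poly(A)-selected RNA of HCC1806, a human triple-negative breast cancer line, whose cells were transfected either with a non-targeting siRNA (siNT) or with a pool of 4 siRNAs against MLK4 (siMLK4), a kinase whose gene symbol is MAP3K21. A day after transfection the cells received doxorubicin, a topoisomerase II poison, at 1 μM for 24 h, or stayed as the vehicle control, which the labels call DMSO and the methods call untreated. The sample titles mark every vehicle library as time 0 and every doxorubicin library as 24 h, so drug and labelled time cannot be told apart in the doxorubicin comparisons. A supplementary figure legend of the study, however, describes treatment with DMSO or with doxorubicin for 24 h. Each of the 4 groups (siNT vehicle, siNT doxorubicin, siMLK4 vehicle and siMLK4 doxorubicin) held 3 libraries of one cell line, 12 in all, which the methods describe as triplicate transfections, and the labels do not say more of how separate they were, so the p-values below measure the spread between these libraries only. Library totals ran from 16759025 to 19302248 reads.

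S100 proteins are small calcium-binding proteins built on a pair of EF-hand motifs, which act mostly as dimers and change the activity of partner proteins when calcium binds. Inside the cell they bind annexins, cytoskeletal proteins and enzymes, and several are also released and bind receptors such as RAGE (AGER) and TLR4. In stratified and breast epithelium many S100 genes are read from one cluster on chromosome band 1q21, beside the genes of the cornified envelope, and their levels are known to rise in inflamed or squamous epithelium.

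In these cells every one of the 10 genes had a lower mean after doxorubicin, with either siRNA. Of all genes, 49.7% in siNT and 48.7% in siMLK4 cells had a negative log2 fold change with doxorubicin. The 10 genes together summed to 47141 ± 8922 normalized reads (mean ± SD, n = 3) with vehicle and 27645 ± 4057 with doxorubicin in siNT cells, and to 38828 ± 10792 and 17724 ± 2493 in siMLK4 cells. With MLK4 silenced, S100A8, S100A9 and S100A14 were called lower in doxorubicin-treated cells, against 2.93% of all genes. The calls of S100A8 and S100A14 were each lost in 4 of 12 fits that left out 1 library and that of S100A9 in 0. S100A2 and S100A8 were called lower in vehicle-treated cells, against 3.14% of all genes. These 2 calls were lost with library totals, with only the vehicle libraries fitted and in most fits that left out 1 library. S100A9 was lower there without overlap, against 18% of all genes, and just missed the required size. No S100 gene had a doxorubicin response that differed between the siRNAs past the threshold, against 0.176% of all genes called lower and 0.0999% called higher. In bulk RNA, fewer cells with a transcript and less of it in each cell cannot be told apart.

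Levels are given as normalized reads, which are read counts divided by the study's size factor of the library, recovered from the deposited values. Fold changes are differences of the deposited variance-stabilized log2 values, a scale that compresses changes of genes with few reads, so that the ratio of means is larger than the log2 value of a low gene implies. A gene was called changed where limma's adjusted p (Benjamini-Hochberg over all 17013 genes) was under 0.01 and the log2 fold change was beyond 0.75 in either direction.

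The siRNA target was read first. MAP3K21 stood at 632 ± 68.5 normalized reads in siNT vehicle and at 95.5 ± 7.31 in siMLK4 vehicle libraries (n = 3 each), which is 15.1% of the siNT mean. With doxorubicin the means were 795 ± 53.3 and 115 ± 22.1, so the siMLK4 level was 14.5% of the siNT level. The 4 siRNAs of the pool are shown because their seeds were looked for in the S100 transcripts. Each is printed as its sense strand, 5′ to 3′, with the 7-base word a seed match would have in a transcript in capitals.

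Pool member 1: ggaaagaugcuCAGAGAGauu
Pool member 2: aggagaagcccAAGGUAAauu
Pool member 3: agaagaaacgaGAGGGAAuuu
Pool member 4: agaacagauugCAAAGAAauu

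All 4 matched a MAP3K21 transcript over their first 19 bases. Among the S100 genes, the 3′UTR of S100A14, the longest of the 10 at 633 bases, held the words of siRNAs 1 and 4, and no other held any of the words. Of 13601 genes with an annotated 3′UTR, 17.5% held the word of siRNA 1, 11.4% that of siRNA 2, 17.3% that of siRNA 3 and 20.4% that of siRNA 4. A word match is a description of the sequence, and its part in any value below was not tested.

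All genes but S100P lie on chromosome 1 (GENCODE 44, GRCh38), from S100A10 at chr1:151982915-151993859 and S100A11 at chr1:152032506-152047907, across the cornified envelope genes, to S100A9 at chr1:153357854-153361023, S100A8 at chr1:153390032-153391073, S100A7 at chr1:153457744-153460651, S100A6 at chr1:153534599-153536244, S100A4 at chr1:153543613-153550136, S100A2 at chr1:153561108-153567890 and S100A14 at chr1:153614255-153616986. S100P lies apart, at chr4:6693878-6697170. Only S100A9 and S100P are on the plus strand. RefSeq promoters (GRCh38.p14, from 250 bases before to 50 after each start) were found for all 10 genes. They were 13 promoters, with several for S100A2 and S100A8, so the genes named below and the shares of promoters are in different units. The word TATAAA, searched on both strands after the sequences had been looked at, stood in promoters of S100A4, S100A7, S100A8, S100A9 and S100P, against 11.5% of 35116 promoters. The AP-1 word TGANTCA, also on both strands, stood in S100A2 alone, against 7.71% of promoters, and an NF-κB word stood in S100A14 alone, against 11.3%. The windows below run from 60 bases before to 30 bases after the annotated start, on the gene's strand, and are shown for the genes in which a searched word falls inside the window. Capitals mark TATAAA, or TGACTCA in S100A2.

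S100A9 (chr1:153357794-153357883, +): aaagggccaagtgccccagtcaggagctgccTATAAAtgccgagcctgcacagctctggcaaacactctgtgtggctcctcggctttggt
S100A8 (chr1:153391044-153391133, -): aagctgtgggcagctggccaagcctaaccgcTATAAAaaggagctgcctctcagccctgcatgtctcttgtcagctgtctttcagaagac
S100A7 (chr1:153460622-153460711, -): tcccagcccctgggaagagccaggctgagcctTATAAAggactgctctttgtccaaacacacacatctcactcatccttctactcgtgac
S100A4 (chr1:153545777-153545866, -): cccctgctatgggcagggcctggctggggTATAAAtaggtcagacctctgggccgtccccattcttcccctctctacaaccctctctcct
S100P (chr4:6693818-6693907, +): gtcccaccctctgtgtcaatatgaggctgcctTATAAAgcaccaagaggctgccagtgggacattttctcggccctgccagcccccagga
S100A2 (chr1:153565815-153565904, -): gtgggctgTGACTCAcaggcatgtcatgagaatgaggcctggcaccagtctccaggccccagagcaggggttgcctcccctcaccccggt

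The word begins 28 bases before the start in S100A7 and S100P, 29 in S100A8 and S100A9 and 31 in S100A4. TGACTCA in S100A2 begins 52 bases before the start. A match is not evidence of binding.

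The cells carried epithelial markers, basal and luminal alike: all 9 of 9 epithelial and basal markers were measured. In siNT vehicle KRT5, a basal keratin, stood at 20878 ± 3207 normalized reads, TP63, a basal transcription factor, at 4837 ± 1534, and the luminal keratins KRT8 and KRT18 at 22026 ± 3348 and 20691 ± 2972. ERBB2 averaged 1459 and ESR1 92.7 normalized reads there, and PGR was at 0 reads in all 6 vehicle libraries, a count that allows up to 3 reads in each. With doxorubicin PGR averaged 13.3 normalized reads in siNT and 11.7 in siMLK4 cells. It was called higher in both, against 12.1% and 12.6% of all genes. ESR1 was called lower with doxorubicin in siMLK4 cells, against 10.6% of all genes, though not with library totals. S100A8 and S100A9 are known best from myeloid cells. Of 9 myeloid markers, CD14 and PTPRC were measured and the other 7 had no row among the 17013 genes. The summed level of the pair was 12.9 to 64.2 normalized reads in every library, against 275 to 1955 for S100A8 alone. That sum was higher with doxorubicin (38.7 to 64.2) than with vehicle (12.9 to 36.8), whereas S100A8 was lower. CD14, the more abundant of the pair, had a mean of 11.4 normalized reads in siNT vehicle and 25 in siNT doxorubicin libraries. In siMLK4 cells its means were 26.8 with vehicle and 36.9 with doxorubicin, and it was not called in any of the 4 comparisons. PTPRC was called higher with doxorubicin in siMLK4 cells (1.75 against 17.9 normalized reads), against 12.6% of all genes. Like PGR, PTPRC reached 10.7 normalized reads only in the doxorubicin groups, so its call has the same limit.

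By level per kilobase of transcript, the order in siNT vehicle was S100A6 (19247 ± 3171 normalized reads per kb, n = 3), S100A11 (16665 ± 338), S100A2 (11304 ± 4149), S100A10 (11130.0 ± 1663), S100A14 (6000.1 ± 2076), S100A8 (4368 ± 373), S100A9 (3976 ± 308), S100A4 (425 ± 141), S100A7 (411 ± 11.9) and S100P (241 ± 128). The 7 abundant genes stood apart from the 3 scarce ones in all 4 groups. Neighbours whose libraries overlapped were S100A2 with S100A10, S100A14 with S100A8, S100A8 with S100A9, and S100A4 with S100A7. S100A6 stayed first and S100P last in every group, though S100A6 and S100A11 overlapped in both siMLK4 groups. S100A2 moved from the third place to the fourth in the other 3 groups, and with doxorubicin S100A9 passed S100A8 and S100A14, its libraries overlapping those of S100A14.

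**Figure D1:**
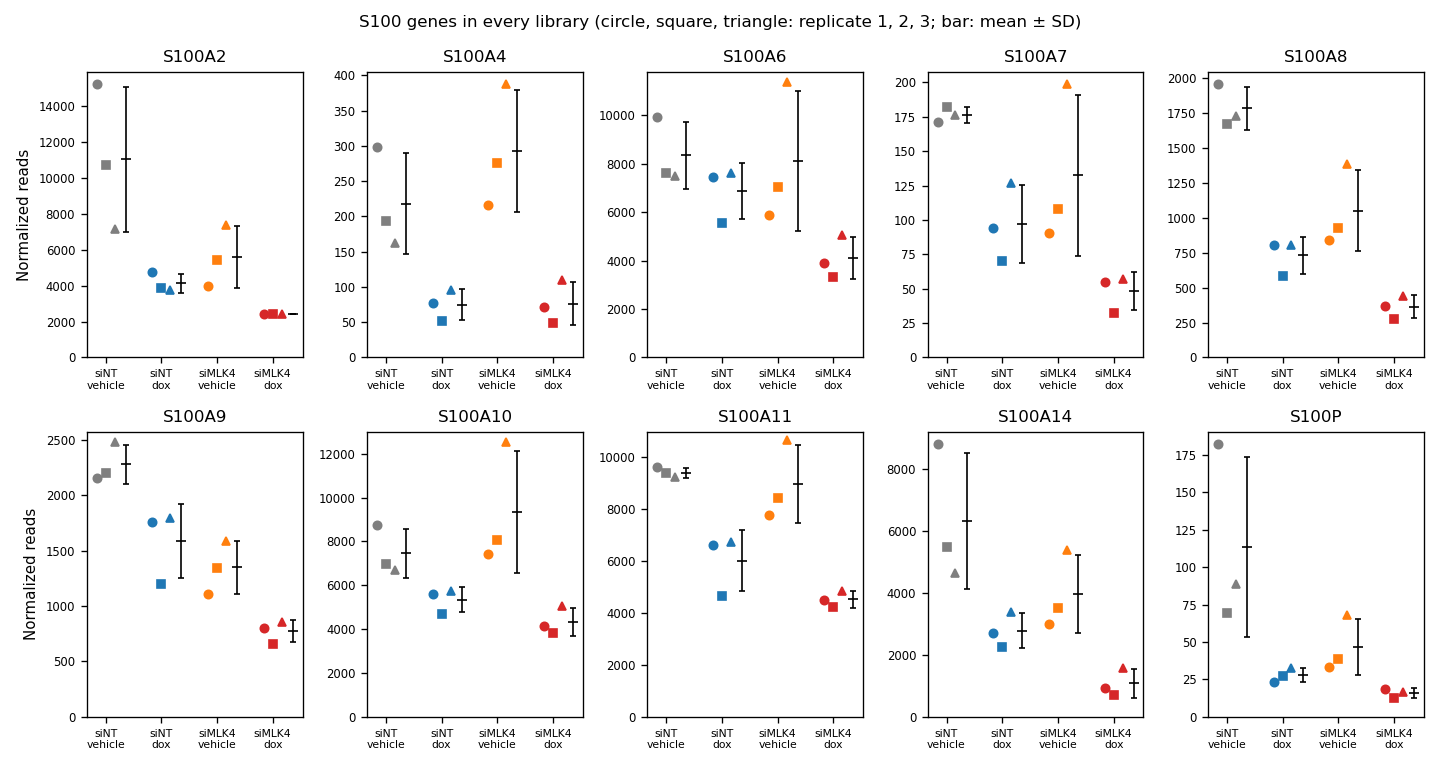
Normalized reads (linear axis from 0) of each of the 10 S100 genes in the 12 libraries, by group; circles, squares and triangles are replicates 1, 2 and 3 and the bars are mean ± SD. The 3 siMLK4 doxorubicin libraries are the lowest group mean in every panel but that of S100A4, where both doxorubicin groups sit together.

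Doxorubicin in siNT cells was the first comparison, and 5 of the 10 genes were called lower, S100A2, S100A4, S100A8, S100A14 and S100P, against 10.6% of all genes called lower and none of the 10 called higher. For 9 genes, all but S100A6, every doxorubicin library was below every vehicle library, against 30.4% of all genes. Over the 10 genes the median log2 fold change was −0.89, beside 0.00 over all genes tested. The choice of scaling moved the balance of all calls: 2060 genes were called higher and 1799 lower with the study's size factors, against 2848 and 1094 with library totals, where 4 S100 genes were called lower and 0 higher.

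S100A8, which with S100A9 forms the metal-binding heterodimer calprotectin, read 1955, 1667 and 1724 normalized reads with vehicle and 806, 580.2 and 802 with doxorubicin. The groups did not overlap, and the doxorubicin mean was 40.9% of the vehicle mean (log2 fold change −1.24, SE 0.19, limma adjusted p = 7.1e-05). S100A9 read 2152, 2203 and 2479.9 normalized reads with vehicle and 1754, 1197 and 1796 with doxorubicin. Its libraries did not overlap either, but its fall to 69.4% (log2 fold change −0.53, SE 0.16, limma adjusted p = 0.012) did not pass the threshold. S100A7, psoriasin, an antimicrobial member of the same cluster, went from 171, 182 and 176 normalized reads to 94.1, 70.2 and 127. Its doxorubicin mean was 55% of the vehicle mean without overlap (log2 fold change −0.66, limma adjusted p = 0.013), and it was not called. S100A7 shares 15.8% of its 50-base stretches with its near copy S100A7A, which had no row of its own. Reads from these stretches could be lost or miscounted, so the level of S100A7 is uncertain.

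S100A2, which marks basal cells of stratified epithelia, read 15251, 10717 and 7163 normalized reads with vehicle and 4759, 3897 and 3761 with doxorubicin. Its vehicle libraries were spread more than those of most members, replicate 1 being the highest, and still none overlapped the doxorubicin libraries (37.5% of the vehicle mean, log2 fold change −1.35, SE 0.24, limma adjusted p = 0.00027). S100A14, another epithelial member, fell from 8803, 5504 and 4664 normalized reads to 2711, 2264 and 3375. That is 44% of the vehicle mean without overlap (log2 fold change −1.13, SE 0.29, limma adjusted p = 0.0039). The S100A14 call was lost without siNT vehicle replicate 1 (−0.87, limma adjusted p = 0.019), without siNT doxorubicin replicate 1 (−1.12, limma adjusted p = 0.014) and without siNT doxorubicin replicate 2 (−0.997, limma adjusted p = 0.021), and also with library totals in place of size factors (−0.90, limma adjusted p = 0.013).

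S100A4, which binds non-muscle myosin and is known for its link with metastasis, was scarce, at 299, 193 and 162 normalized reads with vehicle and 76.6, 51.9 and 95.3 with doxorubicin. Its doxorubicin libraries were all lower, at 34.2% of the vehicle mean (log2 fold change −1.12, SE 0.23, limma adjusted p = 0.00098). S100P, a binder of ezrin, was the scarcest, at 182, 69.6 and 88.7 against 23.1, 27.5 and 32.4 normalized reads. Its mean was 24.4% of the vehicle mean (log2 fold change −1.12, SE 0.21, limma adjusted p = 0.00043), and siNT vehicle replicate 1 was again the highest library.

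The annexin-binding members and S100A6 were not called. S100A11, the partner of annexin A1, was tight with vehicle (9583, 9360.3 and 9204 normalized reads) and lower in each doxorubicin library (6599, 4639 and 6732). Its mean with doxorubicin was 63.8% of the vehicle mean, and its log2 fold change of −0.66 (SE 0.15, limma adjusted p = 0.0017) was under the size required for a call. Without siNT doxorubicin replicate 3 it was called (−0.76, limma adjusted p = 0.0018), as was S100A7 (−0.81, limma adjusted p = 0.0071). S100A10, the partner of annexin A2, which does not bind calcium, read 8748, 6959 and 6698 with vehicle and 5602, 4693 and 5723 normalized reads with doxorubicin. The groups did not overlap, and the change was not called (71.5%, log2 fold change −0.48, limma adjusted p = 0.037). S100A6, calcyclin, read 9940.0, 7640.0 and 7480.0 against 7463, 5542 and 7641 normalized reads. It was the only member whose groups overlapped here, by 1 doxorubicin library (82.4%, log2 fold change −0.28, 95% interval −0.75 to 0.19, limma adjusted p = 0.29).

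In siMLK4 cells the same doxorubicin treatment gave 9 genes called lower, all but S100P, against 10.6% of all genes, and 0 called higher. None of the 10 genes had overlapping libraries, against 30.5% of all genes that were lower without overlap. Over the 10 genes the median log2 fold change was −1.02, beside 0.02 over all genes. Of all genes 2147 were called higher and 1802 lower, against 2888 and 1275 with library totals, where 8 S100 genes were called lower. The vehicle groups of the siNT and siMLK4 cells were different libraries.

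S100A14 had the largest fall of the 10 on the log2 scale, from 3004, 3504 and 5393 normalized reads with vehicle to 940.4, 705 and 1592 with doxorubicin. The doxorubicin mean was 27.2% of the vehicle mean (log2 fold change −1.86, SE 0.29, limma adjusted p = 8.9e-05). S100A4 went from 216, 276 and 387 to 71.2, 48.4 and 109.8 normalized reads (26.1%, log2 fold change −1.47, limma adjusted p = 0.00011). S100A8 went from 841, 927 and 1381 to 371, 275 and 442 normalized reads (34.6%, log2 fold change −1.40, limma adjusted p = 2.5e-05). In all 3 genes siMLK4 vehicle replicate 3 was the highest library and siMLK4 doxorubicin replicate 2 the lowest.

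S100A2 fell from 3964, 5442 and 7405 normalized reads to 2413, 2438 and 2422. These 3 doxorubicin libraries lay close together (SD 12.6), at 43.3% of the vehicle mean (log2 fold change −1.15, SE 0.24, limma adjusted p = 0.00093). S100A10 fell from 7436, 8052 and 12553 to 4129.5, 3812 and 5049 normalized reads (46.3%, log2 fold change −1.07, limma adjusted p = 0.00019). S100A11 fell from 7772, 8425 and 10631 to 4500.1, 4204 and 4849 normalized reads (50.5%, log2 fold change −0.97, limma adjusted p = 8.2e-05). Both were called here and not in siNT cells, a contrast whose own test is given further on.

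S100A6 (50.6%, log2 fold change −0.94, limma adjusted p = 0.0024), S100A7 (36.5%, −0.91, limma adjusted p = 0.0015) and S100A9 (57.2%, −0.76, limma adjusted p = 0.0011) were called too. S100A6 read 5890.3, 7032 and 11373 normalized reads with vehicle and 3912, 3339.6 and 5043 with doxorubicin. These 3 calls rested on single libraries, and that of S100A9 also on the scaling (−0.58 with library totals). Without siMLK4 vehicle replicate 3 the log2 fold changes were −0.66, −0.66 and −0.64, under the required size. Without siMLK4 doxorubicin replicate 2 they were −0.80 (limma adjusted p = 0.015), −0.77 (limma adjusted p = 0.01) and −0.66, and without siMLK4 doxorubicin replicate 1 S100A6 stood at −0.91 (limma adjusted p = 0.01). S100P went from 33.1, 38.9 and 68.1 to 18.7, 12.5 and 16.3 normalized reads and was not called (33.9%, log2 fold change −0.68, limma adjusted p = 0.013). On log2(normalized reads + 1), which compresses few reads less, it was called (−1.45, limma adjusted p = 0.0026).

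**Figure D2:**
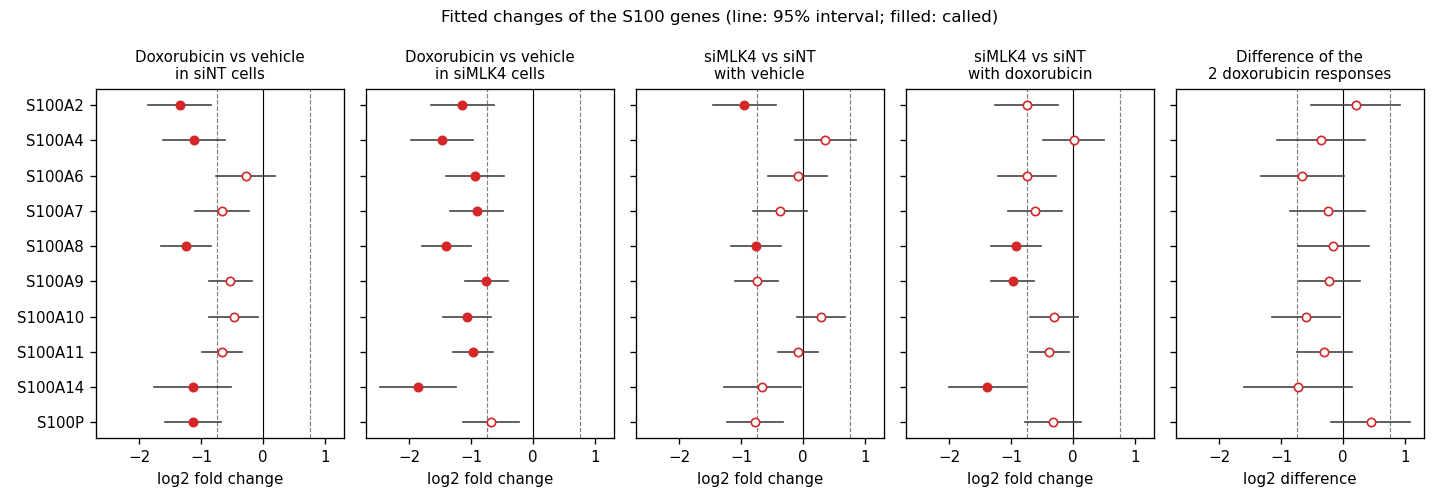
Fitted log2 fold change of each S100 gene in the 4 comparisons, and the difference of the 2 doxorubicin responses in the right panel; lines are 95% intervals, dashed lines mark 0.75 in both directions and filled points were called. All points lie left of 0 in the 2 doxorubicin panels, and none is filled in the right panel.

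Silencing MLK4 in vehicle-treated cells gave 2 of 10 genes called lower, S100A2 and S100A8, against 3.14% of all genes, and 0 called higher, against 2.51%. Only S100A8, S100A9 and S100P were lower without overlap, against 18% of all genes. Over the 10 genes the median log2 fold change was −0.51, beside 0.01 over all genes. Of all genes 427 were called higher and 534 lower, against 632 and 346 with library totals. S100A8 stood at 58.9% of the siNT mean (log2 fold change −0.76, SE 0.19, limma adjusted p = 0.0084), every siMLK4 library (841 to 1381 normalized reads) lying below every siNT library (1667 to 1955). S100A2 stood at 50.7% (log2 fold change −0.95, SE 0.24, limma adjusted p = 0.0093), but siMLK4 replicate 3 (7405 normalized reads) lay above siNT replicate 3 (7163). S100A9 stood at 59.2% without overlap and fell just short of the required size (log2 fold change −0.746, SE 0.16, limma adjusted p = 0.004). S100P stood at 41.2%, also without overlap (log2 fold change −0.77, limma adjusted p = 0.015).

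The 2 calls were not firm. Leaving out each of the 12 libraries in turn, S100A8 stayed called in 4 fits (without siNT doxorubicin replicate 2, siMLK4 vehicle replicate 3 or siMLK4 doxorubicin replicates 2 or 3) and S100A2 in 2 (without siNT vehicle replicate 3 or siMLK4 vehicle replicate 3). For S100A8 the log2 fold change ran from −0.97 to −0.63 and for S100A2 from −1.23 to −0.69. Their adjusted p rose to 0.038 for S100A8, without siMLK4 vehicle replicate 2, and to 0.041 for S100A2, without siMLK4 vehicle replicate 1. Removing either siNT vehicle replicate 1 (S100A2 −0.69, S100A8 −0.70) or siMLK4 vehicle replicate 1 (S100A2 −0.73, S100A8 −0.63) took both below the required size. Conversely, S100A9 and S100P were both called without siMLK4 vehicle replicate 3 (−0.87 and −0.94, limma adjusted p = 0.0023 and 0.007), S100A9 without siNT vehicle replicate 1 (−0.78, limma adjusted p = 0.0077) and S100P without siNT vehicle replicate 2 (−0.97, limma adjusted p = 0.0067). With library totals in place of the study's size factors neither S100A2 (limma adjusted p = 0.019) nor S100A8 (limma adjusted p = 0.02) was called, and the same held with only the vehicle libraries in the fit (limma adjusted p = 0.078 and 0.032).

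The remaining genes did not pass. S100A10 (125% of the siNT mean, log2 fold change 0.29, 95% interval −0.10 to 0.68) and S100A4 (134%, log2 fold change 0.36, 95% interval −0.14 to 0.86) had the higher mean in siMLK4 cells. S100A6 (96.9%) and S100A11 (95.3%, 95% interval of the log2 fold change −0.40 to 0.24) had means near the siNT mean, with overlapping libraries and a sign that turned with library totals. S100A14 was at 62.7% (log2 fold change −0.66, limma adjusted p = 0.11) and S100A7 at 74.9% (log2 fold change −0.37, limma adjusted p = 0.2).

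With doxorubicin, silencing MLK4 gave 3 of 10 genes called lower, S100A8, S100A9 and S100A14, against 2.93% of all genes, and 0 called higher, against 2.66%. Without overlap, 7 genes were lower, against 21.1% of all genes, namely S100A2, S100A6, S100A7, S100A8, S100A9, S100A14 and S100P. Over the 10 genes the median log2 fold change was −0.68, beside 0.02 over all genes. Of all genes 452 were called higher and 498 lower, against 623 and 396 with library totals, where the S100 count stayed at 3. S100A9 read 1754, 1197 and 1796 normalized reads in siNT and 802, 660.4 and 853 in siMLK4 cells. It stood at 48.8% (log2 fold change −0.97, SE 0.16, limma adjusted p = 0.00068), and it was called in each of the 12 fits that left out 1 library. S100A8 stood at 49.7% (log2 fold change −0.92, SE 0.19, limma adjusted p = 0.0027).

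S100A14 was the farthest from the siNT level, with siMLK4 libraries of 705 to 1592 below siNT libraries of 2264 to 3375 normalized reads (38.8%, log2 fold change −1.38, SE 0.29, limma adjusted p = 0.0032). The S100A8 and S100A14 calls each held in 8 of 12 fits. The adjusted p passed 0.01 without siNT doxorubicin replicate 1 (0.014 for S100A8 and 0.011 for S100A14), without siNT doxorubicin replicate 3 (0.017 and 0.02), without siMLK4 doxorubicin replicate 1 (0.012 and 0.018) and without siMLK4 doxorubicin replicate 2 (0.016 and 0.019), all by limma. S100A2 (58.6%, log2 fold change −0.75, limma adjusted p = 0.033), S100A6 (59.5%, −0.75, limma adjusted p = 0.024) and S100A7 (49.7%, −0.62, limma adjusted p = 0.037) were lower without overlap and not called, but S100A2 was called with only the doxorubicin libraries in the fit (limma adjusted p = 0.00044) and without siNT vehicle replicate 1 and siMLK4 vehicle replicate 3 together (limma adjusted p = 0.0018). S100A4 did not separate (102%, log2 fold change 0.01, 95% interval −0.49 to 0.51), and S100A10 (81.1%), S100A11 (75.4%) and S100P (57.2%) were not called.

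The test of the difference between the 2 doxorubicin responses called 0 of the 10 genes, against 0.176% of all genes called lower and 0.0999% called higher. At an unadjusted p under 0.05 limma gave 1 of 10, against 14.5% of all genes, namely S100A10 (difference −0.60 on the log2 scale, 95% interval −1.15 to −0.05, limma adjusted p = 0.3). S100A14 had the largest estimate and a wide interval (−0.73, 95% interval −1.60 to 0.15), followed by S100A6 (−0.66, 95% interval −1.33 to 0.01). The difference was negative for 8 of the 10 genes, against 47.9% of all genes. S100A2 and S100P had the opposite sign (S100P 0.44, 95% interval −0.19 to 1.08). The intervals of 9 of the 10 genes included 0, that of S100A11 among them. Over the fits that left out 1 library the difference of S100A11 ran from −0.48 to −0.17 (limma adjusted p from 0.29 to 0.78).

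Ratios within a library compare partners without the scaling. The S100A8 to S100A9 ratio, per kilobase, was 1.28, 1.06 and 0.977 in siNT cells with vehicle and 0.645, 0.681 and 0.627 with doxorubicin. In siMLK4 cells it was 1.06, 0.969 and 1.22 with vehicle and 0.65, 0.585 and 0.728 with doxorubicin. All 6 doxorubicin libraries were below all 6 vehicle libraries, whereas the siRNA groups overlapped within each treatment. S100A10 to ANXA2, its annexin partner, was 0.615, 0.572 and 0.562 in siNT vehicle and 0.688, 0.592 and 0.652 in siNT doxorubicin libraries. It was 0.872, 0.88 and 1.17 in siMLK4 vehicle and 0.879, 0.893 and 0.917 in siMLK4 doxorubicin libraries, so that here all 6 siMLK4 libraries were above all 6 siNT libraries. S100A11 to ANXA1, its annexin partner, was 0.851, 1.07 and 0.971 in siNT vehicle and 0.806, 0.555 and 0.727 in siNT doxorubicin libraries. It was 1.1, 1.2 and 1.29 in siMLK4 vehicle and 0.973, 1.03 and 0.817 in siMLK4 doxorubicin libraries. Over all 12 libraries this ratio separated by neither factor, while within each siRNA the doxorubicin libraries were lower and within each treatment the siMLK4 libraries were higher, without overlap. These ratios were described and not tested, and they show unequal change of the partners, not which of them moved.

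**Figure D3:**
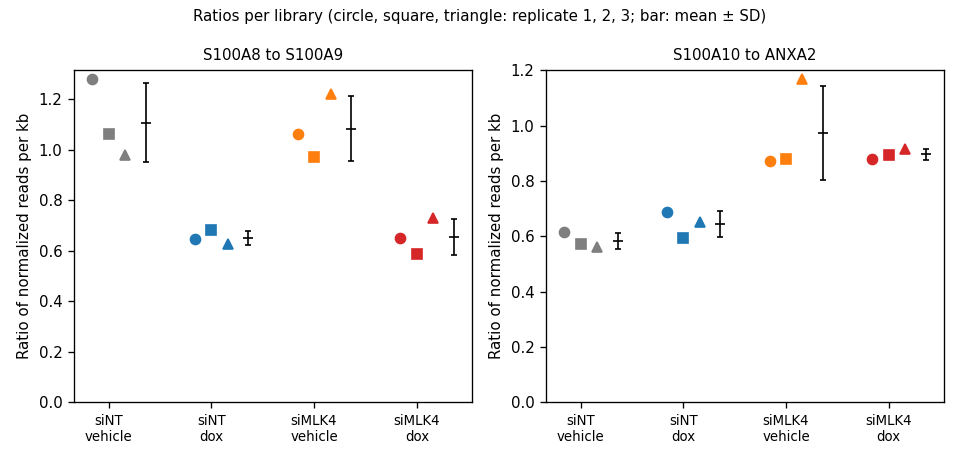
Ratio of normalized reads per kb in each library (linear axes from 0) for S100A8 to S100A9 on the left and S100A10 to ANXA2 on the right; markers are replicates and bars are mean ± SD. The left ratio separates by doxorubicin (at most 0.728 against at least 0.969) and the right ratio by siRNA (at most 0.688 against at least 0.872).

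Other S100 genes were few. Of 11 further family members, S100A3, S100A13 and S100A16 were measured. S100A16, which neighbours S100A14, was called lower with doxorubicin in siNT (49% of the vehicle mean, log2 fold change −1.02, limma adjusted p = 0.00021) and siMLK4 cells (41.1%, −1.27, limma adjusted p = 3.3e-05) and with siMLK4 under doxorubicin (54.2%, −0.87, limma adjusted p = 0.0026). S100A13 went the other way in siNT cells, 196 to 356 normalized reads with doxorubicin (log2 fold change 0.77, limma adjusted p = 0.036), and was not called, although it was with library totals, with only the siNT libraries fitted, and without siNT vehicle replicate 1 or siMLK4 vehicle replicate 3, singly or together. S100A3 stayed at or under 28.5 normalized reads in every group mean and was not called.

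Other genes of the epidermal differentiation complex, among them the cornified envelope genes, share the 1q21 cluster, and 19 of 42 listed were measured. With doxorubicin in siNT cells 7 were called lower and 1 higher (median log2 fold change −0.60), and in siMLK4 cells 4 were lower and 1 higher (median −0.48). Of all genes 10.6% were called lower in each, and 12.1% and 12.6% higher. LCE3C, among the 7, had a mean above 10.7 normalized reads only in siNT vehicle (28), so its row depended on that group. The higher gene was TCHH, trichohyalin, a hair follicle protein, at 50.7 against 409 normalized reads in siNT cells (log2 fold change 2.23, limma adjusted p = 2.5e-07). Among the lower ones were LCE3D, a late cornified envelope gene (19.5% of the siNT vehicle mean, log2 fold change −1.86), CRCT1 (26.8%, −1.33) and SPRR1B, a small proline-rich precursor of the envelope (39.5%, −1.28). In siMLK4 cells IVL, involucrin, was called too (34.6% of the vehicle mean, log2 fold change −1.10, limma adjusted p = 1.4e-05).

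With siMLK4, 11 of these 19 genes of the differentiation complex were called lower in vehicle (median log2 fold change −0.85) and 7 in doxorubicin (median −0.69), with 0 higher in both, against 3.14% and 2.93% of all genes called lower. With library totals 8 and 7 were lower, against 2.03% and 2.33% of all genes, and 1, TCHH, was higher with doxorubicin. Without siNT vehicle replicate 1 and siMLK4 vehicle replicate 3 together, TCHHL1 was called higher in vehicle. Its mean reached 10.7 normalized reads, the least that the highest group of any gene had, only in siMLK4 vehicle (11.8). Its row thus depended on that group. In vehicle the largest falls on the log2 scale, which compresses the scarcest genes, were those of LCE3D (26.2% of the siNT mean, log2 fold change −1.57, limma adjusted p = 4.9e-05), SPRR2G (16.8%, −1.47, limma adjusted p = 5.2e-06), SPRR2E (17.6%, −1.41, limma adjusted p = 1.4e-06) and SPRR2D (27.7%, −1.32, limma adjusted p = 2.4e-05). In doxorubicin, on the same scale, they were SPRR2E (12.5%, −1.27), LCE3D (21.4%, −1.17), SPRR2A (19%, −1.08) and SPRR2D (29.2%, −1.04). SPRR2 genes are near copies of each other, so the split of reads among them is uncertain. The summed level of the 19 was 3607, 4185 and 4144 normalized reads in siNT vehicle and 1596, 1850.3 and 1931 in siMLK4 vehicle libraries, with no overlap.

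**Figure D4:**
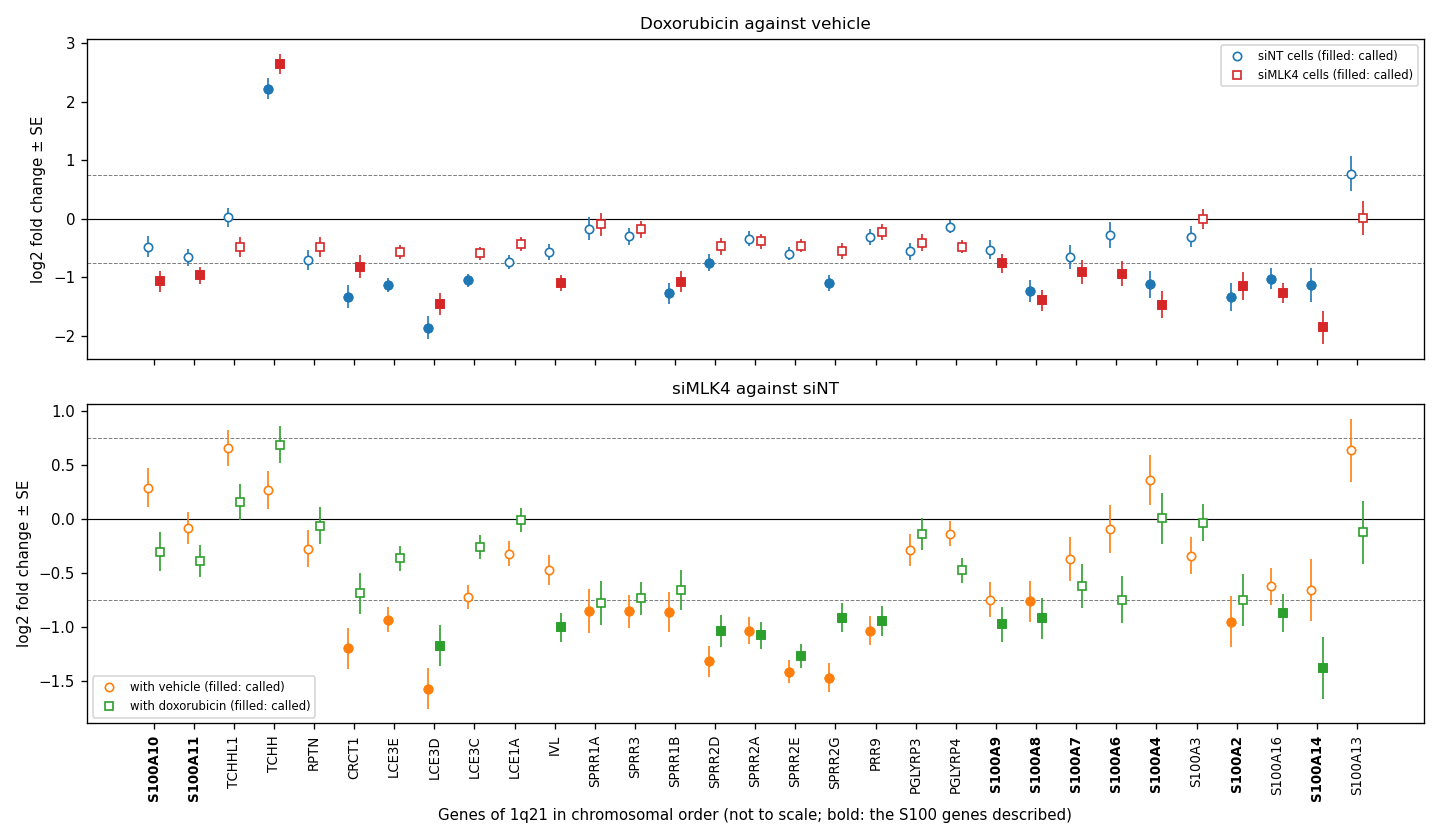
log2 fold change ± SE of the measured S100 and other epidermal differentiation complex genes of 1q21 in chromosomal order (not to scale), for doxorubicin against vehicle above and siMLK4 against siNT below; filled points were called and dashed lines mark 0.75. The S100 genes in bold, which leave out S100A3, S100A13 and S100A16, are all below 0 with doxorubicin, S100A13 lies above 0 in siNT cells, TCHH lies far above 0, and the siMLK4 calls with vehicle sit mostly in the other genes of the complex, between the S100 genes.

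Receptors and partners of S100 proteins were measured for 17 of 18 listed genes. With doxorubicin 3 were called lower in siNT and 5 in siMLK4 cells, with 0 higher (medians −0.43 and −0.52 on the log2 scale), against 10.6% of all genes called lower in each. AGER, which encodes RAGE, had 24% of its vehicle mean in siNT cells (log2 fold change −1.15, limma adjusted p = 9e-06) and 21.8% in siMLK4 cells (−1.18). ANXA6, a membrane-binding annexin, fell to 10.4% and 8.3% (−2.52 and −2.74). PLAT, tissue plasminogen activator, was called lower in siMLK4 cells (37.3%, −1.32). TLR4 was scarce, at 14.3 normalized reads or less in each group mean, and was not called. CD36, a fatty acid receptor, was the only partner called higher with siMLK4 in vehicle (285 against 665 normalized reads, log2 fold change 1.13, limma adjusted p = 0.00037), and it was called lower with doxorubicin in both siRNA groups (−0.78 and −1.40), though in siNT cells not with library totals.

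With siMLK4 under doxorubicin, 4 partners were called lower: PLAT (37.1% of the siNT mean, log2 fold change −1.31, limma adjusted p = 2.9e-05), ANXA1 (56.7%, −0.83, limma adjusted p = 0.001), ANXA2 (58.3%, −0.78, limma adjusted p = 0.00068) and EZR, ezrin (59.3%, −0.75, limma adjusted p = 0.00048), against 2.93% of all genes. These calls depended on the scaling: TMM left 3, without EZR, and library totals left 1, PLAT. ANXA2 was among the most abundant partners and its siMLK4 vehicle mean of 21907 ± 2595 normalized reads was 74% of the siNT vehicle mean (not called), whereas S100A10 stood at 125%.

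Of 25 other EF-hand genes, 23 were measured. With doxorubicin 4 were called lower and 1 higher in siNT cells and 5 lower and 1 higher in siMLK4 cells, against 10.6% of all genes called lower in each and 12.1% and 12.6% called higher. With library totals 3 were lower in siMLK4 cells, against 7.49% of all genes. SRI, sorcin, fell to 27.1% and 21.2% of the vehicle mean (log2 fold changes −1.63 and −1.97), RCN3, a reticulocalbin, to 28.7% and 37% (−1.50 and −1.17) while RCN2 fell to 44.8% in siNT cells (−1.13) and LCP1, an actin bundler, to 48.1% and 48.5% in siNT and siMLK4 cells (−1.04 and −1.03). EFHD1, a mitochondrial EF-hand protein, was called higher in all 4 comparisons, with a mean of 19.8 normalized reads in siNT vehicle, 146 in siNT doxorubicin, 104 in siMLK4 vehicle and 385 in siMLK4 doxorubicin libraries. With siMLK4 in vehicle, CALM2, a calmodulin gene, was the 1 called lower (58%, log2 fold change −0.78), against 3.14% of all genes, and with siMLK4 under doxorubicin 0 of 23 were, against 2.93%. The CALM2 call was lost with library totals, where 3 genes were called higher (EFHD1, CALM3 and GCA), and without siNT vehicle replicate 1 and siMLK4 vehicle replicate 3 together.

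Several epithelial and basal markers were lower in the same groups as the S100 genes. Of the 9, 5 were called lower with doxorubicin in each siRNA group, 2 with siMLK4 in vehicle and 3 with siMLK4 under doxorubicin, and 0 were called higher. Of all genes 10.6%, 10.6%, 3.14% and 2.93% were called lower in these comparisons. With library totals KRT5 was called higher with siMLK4 in vehicle, beside the 2 lower, and 2 in place of 3 were lower with siMLK4 under doxorubicin, without KRT17. KRT14 was at 41% of its vehicle mean with doxorubicin in siNT cells and at 47.8% of its siNT mean with siMLK4 in vehicle, and KRT6A at 38.5% and 43.5%. KRT5 was at 42.2% with doxorubicin in siNT cells, and at 155% of its siNT mean with siMLK4 in vehicle (log2 fold change 0.64, limma adjusted p = 0.0074), which was under the required size. TP63 was at 32.1% with doxorubicin in siNT cells. Of those not called there, KRT8 was at 135% of its vehicle mean (log2 fold change 0.44, limma adjusted p = 0.04) and KRT17 at 98.8%. CDH1, E-cadherin, averaged 4274 normalized reads in siNT vehicle and 5568 in siMLK4 vehicle libraries, which was not called (log2 fold change 0.38, limma adjusted p = 0.058). Their summed level was 115185, 112236 and 103918 normalized reads in siNT vehicle and 75944, 72873 and 84713 in siNT doxorubicin libraries. It was 94645, 99654 and 102117 in siMLK4 vehicle and 50856, 44959 and 59341 in siMLK4 doxorubicin libraries. The part of these markers in the S100 values was not tested. Of 7 fibroblast and endothelial markers, COL1A1, PDGFRB and VWF were measured, with a summed level of 289 to 659 normalized reads. The sum was highest in siMLK4 vehicle libraries (549 to 659), where COL1A1, its most abundant gene, was called higher (286 against 529 normalized reads, log2 fold change 0.78), and its part was not tested.

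Transcript length went with the level in single libraries. The 10 S100 transcripts are short, 408 to 1054 bases, against a median of 2872 over all genes. The lowest slopes of value on log2 length were those of 2 vehicle libraries, siNT replicate 1 (−0.114 per doubling) and siMLK4 replicate 3 (−0.149), and these also had the highest summed S100 level of their group. With both left out, 5 and 6 members were called with doxorubicin in siNT and siMLK4 cells, against 10.9% and 10.7% of all genes called lower in those fits. With siMLK4 in vehicle and doxorubicin 3 and 4 members were called, against 2.89% and 3% of all genes. The 2062 genes in the same length range had median log2 fold changes of 0.11 and 0.05 for doxorubicin in siNT and siMLK4 cells, and 0.06 and 0.01 for siMLK4 in vehicle and doxorubicin. Of those genes 6.6%, 8%, 1.84% and 2.09% were called lower in these 4 comparisons.

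**Figure D5:**
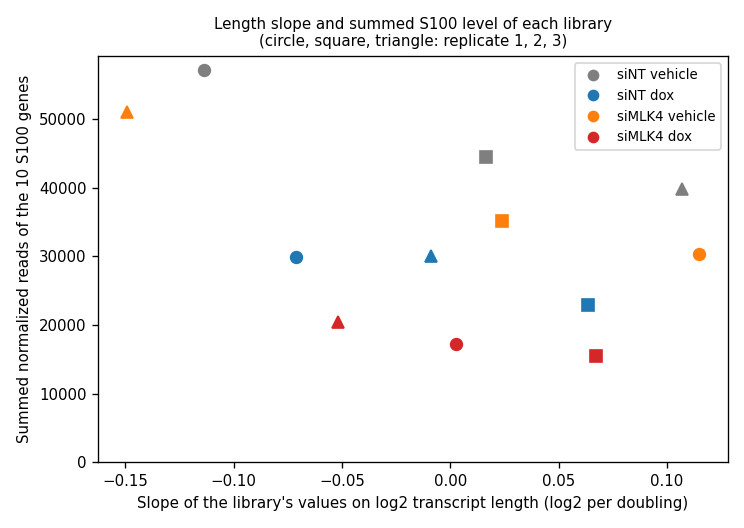
Summed normalized reads of the 10 S100 genes (linear axis from 0) against the slope of the library's values on log2 transcript length, one marker per library, coloured by group and shaped by replicate. Within each vehicle group the library with the lowest slope has the highest sum, and every doxorubicin library lies below every vehicle library of the same siRNA.

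Across the 12 libraries the 10 genes ran close together, with Pearson correlations of their variance-stabilized values from 0.51 (S100A4 with S100A9) to 0.97 (S100A8 with S100A14) and a median of 0.88. The points share 4 groups and the length slope, so this is a description only. Among 11057 genes with a mean of at least 100 normalized reads, the pattern nearest to S100A8 was that of S100A16 (0.99), then MSANTD3 and SLC25A5 (0.99 each). The nearest to S100A14 were NOL7, ANXA2 and PTGES (0.99 each), and to S100A10 they included CREG1 (0.99) and ANAPC15 (0.98). S100A2 was nearest to CCT4, ITGB1BP1 and PFN1 (0.98 each), S100A4 to CSTPP1, PLAAT3 and RPS7 (0.99 each), and S100A6 to LARP7, RPS15A and MGST1 (0.96 or higher). S100A7 was nearest to ANAPC16, TADA2A and RPL27, S100A9 to CMTM7, EIF2A and PPARG, S100A11 to RPL14, ZNF271P and RPL27, and S100P to COX19, YARS1 and C1orf43, all at 0.96 or higher.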

How the data were processed

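Per the methods, HCC1806 libraries were made from poly(A)-selected RNA with a KAPA kit and counted on the reverse strand. The authors deposited one table of log2 values, the variance-stabilized counts of the 12 libraries. The submitters' processing notes name Trimmomatic 0.39, HISAT2, HTSeq 0.6.0, DESeq2 1.26.0 and hg19, whereas the study's methods name GRCh38 (with reads under 50 bases dropped and optical duplicates removed), so no coordinate comes from the table. Annotation came from GENCODE 44 (16957 genes matched). Whole reads were recovered by inverting the transformation (100% whole within 0.05), which gave totals and size factors from 0.852 to 1.2. No column of another sample was present. Counting precision is limited for genes near the lowest retained mean of 10.7 normalized reads.

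The deposited log2 values were fitted over all 4 groups with limma 3.58.1 (R 4.3.3) with a variance trend, and p-values were adjusted by Benjamini-Hochberg over 17013 genes. The fit was run on simulated data for doxorubicin against vehicle in siNT cells. Of 200 changed genes 100% were called, and 0 of 16813 others. The fold change and the library spread set for these genes are not given here. How often the fit calls a gene with the fold change and library spread of the S100 genes was not tested. The S100 genes, the other lists and the alternatives were chosen with earlier results of these data known. Named genes were all 10 S100 genes, MAP3K21, up to 4 called genes per list and comparison by size of change, and the 3 nearest patterns per S100 gene, of which 1 is not reported here; markers and partners named without a call were chosen after their values were seen. Deviations of same-numbered libraries from their group means correlated above 0 for all 3 numbers in 2 of 4 comparisons. The correlations were 0.46, 0.105 and 0.205 for doxorubicin in siNT cells and 0.19, 0.516 and 0.559 for siMLK4 with doxorubicin. For doxorubicin in siMLK4 cells they were −0.077, 0.176 and 0.337. Libraries of different numbers were not correlated for comparison, so these values do not show pairing, and the methods state none.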

Additional observations from a re-analysis of the deposited data

Results flagged for a closer look

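PLAT, tissue plasminogen activator, which S100A10 with annexin A2 is known to bind at the cell surface, had doxorubicin responses that differed between the siRNAs by a test of the difference itself. It averaged 942 normalized reads in siNT vehicle and 941 in siNT doxorubicin libraries (log2 fold change −0.02), and 936 in siMLK4 vehicle and 349.5 in siMLK4 doxorubicin libraries (log2 fold change −1.32). The difference was −1.30 on the log2 scale (SE 0.20, limma adjusted p = 0.0073). The call was not firm: of the 12 fits that left out 1 library, it held only in the one without siMLK4 doxorubicin replicate 3. The difference ran from −1.44 to −1.16 over these fits, and the limma adjusted p reached 0.03 without siMLK4 doxorubicin replicate 1. It was also lost with the 2 vehicle libraries of lowest length slope left out.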

How the results depend on the processing

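Of 1140 log2 fold changes of S100 genes compared under other settings, 1052 kept their direction and side of the threshold, 49 lost it, 25 gained it and 14 changed sign, all 14 for genes that were not called. Several settings can move the p-value but not the fold change. They are no variance trend, the replicate block, only the groups compared, and leaving out a library of another group. The threshold without a required size refits nothing and gave 10 of the 25. The count of 1052 is thus partly fixed by the settings chosen. Library totals in place of size factors put the median log2 fold change of all genes at 0.18 and 0.16 for doxorubicin in siNT and siMLK4 cells, from 0.00 and 0.02. With them siMLK4 in vehicle gave 0.052 for S100A6 and 0.06 for S100A11. S100A4 with siMLK4 under doxorubicin was −0.0006 on log2(normalized reads + 1) and −0.0143 by limma-voom.

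The 961 genes called for siMLK4 in vehicle became 1613 on log2(normalized reads + 1), 1483 by limma-voom and 611 with only the groups compared, and the 2 S100 genes became 0 with library totals, 1 with at least 10 reads in every library and 0 with only the groups compared. On log2(normalized reads + 1) they were S100A2 and S100A9 in place of S100A2 and S100A8 (S100A8 −0.79, limma adjusted p = 0.01), and S100A9 was called beside them with TMM and by limma-voom. The 950 genes for siMLK4 under doxorubicin became 1466 by limma-voom, and the 47 of the difference of responses 29. At an adjusted p under 0.05 with no size required, 9745, 9858, 4381, 4219 and 204 genes were called in the 5 comparisons, and 9 S100 genes for doxorubicin in siNT cells, 4 for siMLK4 in vehicle and 6 for siMLK4 under doxorubicin.

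The replicate block took the S100 count for siMLK4 in vehicle from 2 to 1 (S100A2 lost, limma adjusted p = 0.018). Correlations of same-numbered libraries were of mixed sign there (−0.723, 0.325 and −0.523). The block changed no other call of an S100 gene. Settings chosen after seeing the data were the length slope as a covariate, which gave 4 S100 genes for siMLK4 in vehicle and 226 genes for the difference of responses, and leaving out the 2 vehicle libraries with the lowest slopes, which gave 13 genes for that difference and 0.0162 for S100A7 in it. The share of all genes called for siMLK4 in vehicle with the covariate is not given, so the 4 S100 genes cannot be set against it.

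Leaving out 1 library at a time gave 4 to 7 and 6 to 9 S100 genes for doxorubicin in siNT and siMLK4 cells, 0 to 4 and 1 to 3 for siMLK4 in vehicle and doxorubicin, and 0 to 37 genes for the difference of responses. The share of all genes called in each of these fits is not given, so these S100 counts do not show how far all calls moved with them. Signs changed for S100A6 (−0.36 to 0.11) and S100A11 (−0.21 to 0.013) with siMLK4 in vehicle, for S100A4 with siMLK4 under doxorubicin (−0.19 to 0.19), and for S100A2 (−0.065 to 0.48) and S100A8 (−0.30 to 0.048) in the difference of responses. The cause of these changes was not tested. Depth limits S100P most, at 12.5 to 32.4 normalized reads with doxorubicin.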
